A study of Homo sapiens with 9 samples.

Results

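The CEP genes encode proteins of the centrosome, the pair of centrioles and surrounding matrix from which a cell grows its microtubules and, on the older centriole, its cilium. The members described here are the protein-coding genes whose symbol is CEP followed by digits with or without a letter suffix, CEP55 excepted, since that gene acts mainly in the final cut of cell division. There were 35 such genes among the 56347 genes matched, and all 35 were among the 16181 genes with enough reads to be tested. They were grouped by textbook role. The 11 duplication and elongation genes include CEP152 and CEP192, which bring the kinase PLK4 to the centriole. A further 11 serve the distal appendages, the transition zone or the cilium. Another 5 belong to the linker between centrioles or the subdistal appendages, 3 to the satellites and their microtubule contacts, and 5 have a less defined role.

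RNA was measured by sequencing polyadenylated RNA from nuclear and cytoplasmic fractions of HEK293 cells, an established human embryonic kidney line that the study's methods call 293 T. Cells received either a control siRNA or siRNAs against WTAP and KIAA1429 together (Virilizer/WTAP RNAi in the labels, here WTAP/KIAA1429 RNAi). Both targets are subunits of the complex that deposits N6-methyladenosine (m6A) on mRNA, and the study asked whether that complex acts in mRNA export. The 9 samples were 3 control nuclear, 3 RNAi nuclear, 2 RNAi cytoplasmic (replicates 1 and 2) and 1 control cytoplasmic (replicate 2), and other cytoplasmic replicates were not analysed here. An mRNA copied from a gene must leave the nucleus before it is translated, so its nuclear/cytoplasmic ratio falls with export and with decay in the nucleus, and rises with decay in the cytoplasm.

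The samples held between 11627403 and 19036141 estimated counts. Both siRNA targets were lower after RNAi. WTAP was at 24.1, 27.6 and 23.0 CPM (counts scaled to the same library total, TMM-normalized) in control nuclei and at 12.2, 14.3 and 15.5 CPM in RNAi nuclei, and KIAA1429 (VIRMA) at 13.6, 13.2 and 19.8 CPM against 9.18, 5.56 and 6.97 CPM. In edgeR's fit WTAP was at -0.83 (FDR 0.0169) in the nucleus and -1.72 (FDR 7.90e-04) in the cytoplasm on the log2 scale, and VIRMA at -1.08 (FDR 0.0314) and -2.07 (FDR 0.00268). Of 8 long noncoding RNAs listed as nuclear, 6 were tested, and their summed level was 397 to 537 CPM in control nuclei, 557 to 573 CPM in RNAi nuclei, 130.0 CPM in the control cytoplasm and 81.9 to 93.4 CPM in the RNAi cytoplasm. Of 6 genes listed as expressed in HEK293 cells 5 were tested, and none of 5 listed markers of blood, liver or muscle passed the filter. Nothing in the labels says that replicates were separate cultures, so p-values measure the spread between these samples, which may be technical. A fraction's CPM is a share of its reads, so a lower value cannot be told apart from a rise of other RNAs in that fraction or, in bulk RNA, from fewer cells that express the gene.

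After WTAP/KIAA1429 RNAi the nuclear/cytoplasmic ratio of 18 of the 35 CEP genes (51.4%) increased, against 10.4% of all genes tested. It decreased for 2 (5.71%), against 7.87% of all. Here a gene was called when its log2 change exceeded 0.5 and its Benjamini-Hochberg adjusted p from edgeR's quasi-likelihood test (FDR) was under 0.1. The ratio change is the RNAi nuclear/cytoplasmic ratio divided by the control one, on the log2 scale throughout. Its median over the 35 genes was 1.39, against -0.05 over all genes tested. The increases ran from 0.96 for CEP43 to 3.90 for CEP162, and the decreases were -0.67 for CEP250 and -0.84 for CEP131. The contrast rests on a control cytoplasmic fraction with no replicate, whose spread was taken from the other groups. Without RNAi cytoplasmic replicate 2 the median was 1.09, against 0.02 over all genes, and fewer CEP genes were called. That fit leaves each cytoplasmic group with a lone sample assumed to vary like the others.

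The calls depended on whether an offset for the base composition of the transcripts entered the fit. The CEP genes with an increased ratio had a GC content of 34.6% to 42.6%, and those with a decreased ratio 53.5% and 65.6%. Libraries differed in how they represented GC-poor genes, and when each library's trend with GC content was added to the fit as an offset, 1 of the 35 genes (CEP170, 1.34, FDR 0.0856) was called higher, against 2.78% of all genes, and 1 (CEP41, -1.02) lower, against 2.13%. The median over the CEP genes was then 0.67 and over all genes -0.04. All values without mention of this offset are from the fit without it.

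**Figure D1:**
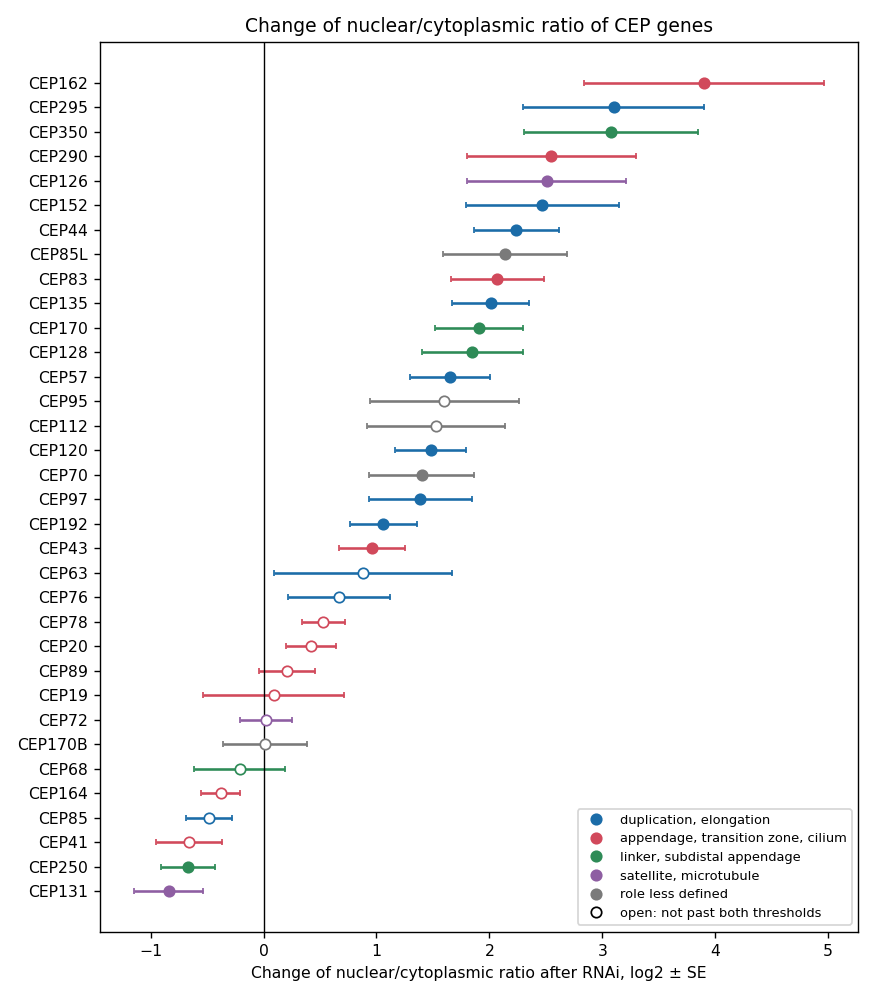
Each point is the change of a CEP gene's nuclear/cytoplasmic ratio after WTAP/KIAA1429 RNAi (log2, horizontal axis) with its standard error, coloured by role and filled when past both thresholds. The 18 filled points on the right run from 0.96 to 3.90, and the 2 filled points on the left are CEP250 at -0.67 and CEP131 at -0.84.

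Short stretches of coding sequence from genes at both ends of the ratio change differed in base composition in the same direction. The first 90 bases of the longest internal exon lying wholly in coding sequence are shown for the 4 genes with the largest increase and the 2 with a decrease, 5′ to 3′ on the gene's strand, from GRCh37, with G and C in capitals.
CEP162: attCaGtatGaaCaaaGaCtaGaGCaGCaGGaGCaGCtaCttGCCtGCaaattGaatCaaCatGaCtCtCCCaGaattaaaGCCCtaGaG
CEP295: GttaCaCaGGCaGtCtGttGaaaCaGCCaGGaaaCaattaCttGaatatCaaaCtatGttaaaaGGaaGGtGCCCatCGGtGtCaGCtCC
CEP350: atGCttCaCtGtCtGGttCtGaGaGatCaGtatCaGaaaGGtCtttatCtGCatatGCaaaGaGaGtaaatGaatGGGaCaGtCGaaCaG
CEP290: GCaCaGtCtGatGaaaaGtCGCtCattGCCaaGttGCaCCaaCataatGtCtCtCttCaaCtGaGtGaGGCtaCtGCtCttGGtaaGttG
CEP131: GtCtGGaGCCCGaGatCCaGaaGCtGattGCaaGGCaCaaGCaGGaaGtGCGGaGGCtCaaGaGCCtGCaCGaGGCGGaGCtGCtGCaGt
CEP250: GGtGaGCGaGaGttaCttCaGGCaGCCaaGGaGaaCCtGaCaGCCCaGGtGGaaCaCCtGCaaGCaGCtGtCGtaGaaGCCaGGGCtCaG
The stretches lie at chr6:84862809-84862898 (minus strand, exon 23 of 27 of the longest protein-coding transcript) for CEP162, chr11:93429848-93429937 (plus, exon 15 of 30) for CEP295, chr1:180061749-180061838 (plus, exon 34 of 38) for CEP350 and chr12:88483175-88483264 (minus, exon 31 of 54) for CEP290. That of CEP131 lies at chr17:79167838-79167927 (minus, exon 18 of 26) and that of CEP250 at chr20:34090218-34090307 (plus, exon 30 of 36). G and C made up 43.3%, 43.3%, 41.1% and 45.6% of the first 4 stretches and 61.1% and 58.9% of the last 2. The longest protein-coding transcripts had 37.1%, 40.1%, 41.1% and 35.6%, and 65.6% and 53.5%, so a stretch need not stand for its transcript.

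Of the 11 duplication and elongation genes, the ratio of 8 increased and of none decreased. CEP135, part of the cartwheel hub from which a new centriole is built, was at 5.96 CPM in the control cytoplasm and at 1.56 and 2.30 CPM in the RNAi cytoplasm, and at 6.32, 5.25 and 6.81 CPM in control nuclei and 7.86, 7.32 and 8.28 CPM in RNAi nuclei. Every RNAi nuclear value was above every control one, and both RNAi cytoplasmic values were below the control one. Its ratio increased by 2.01 ± 0.337 (SE, FDR 0.00711). CEP44, needed for a centriole to mature into a centrosome, was at 3.89 CPM in the control cytoplasm and at 0.935 and 0.875 CPM after RNAi, while its nuclear values overlapped (3.02, 3.95 and 3.27 CPM in control, 3.96, 3.99 and 3.49 CPM in RNAi). The ratio of CEP44 increased by 2.24 ± 0.377 (SE, FDR 0.00711).

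CEP192 and CEP152 recruit PLK4, the kinase that starts duplication. CEP192 was at 12.4 CPM in the control cytoplasm and at 5.84 and 4.59 CPM in the RNAi cytoplasm. Its nuclear values overlapped, at 10.4, 10.5 and 13.6 CPM in control and 11.2, 10.6 and 8.94 CPM in RNAi nuclei, so the increase of 1.06 ± 0.298 (FDR 0.0448) came with lower cytoplasmic and not with higher nuclear values. CEP152 had few reads, with 13 estimated counts in the control cytoplasm and 4 and 1 in the RNAi cytoplasm, against 32, 26 and 27 in control nuclei and 40, 44 and 48 in RNAi nuclei. Its increase was 2.47 ± 0.676 (FDR 0.0423), and its RNAi/control ratio in the cytoplasm was 0.288 with an exact 95% counting interval of 0.0803 to 0.859. CEP63, the partner of CEP152, also had few reads (4 to 19 counts in every sample), and its change of 0.88 did not pass (FDR 0.505).

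CEP295 and CEP120 act in centriole assembly and elongation. CEP295 had 5.66 CPM in the control cytoplasm and 1.48 and 0.875 CPM after RNAi. In the nuclei it had 10.2, 2.73 and 3.89 CPM in control and 12.4, 8.16 and 10.7 CPM in RNAi samples, so control replicate 1 lay within the RNAi range and the other two below it. Its ratio increased by 3.10 ± 0.803 (FDR 0.0348). CEP120 fell from 10.5 CPM to 4.91 and 4.48 CPM in the cytoplasm, and had 6.66, 4.50 and 5.22 CPM in control and 7.51, 6.39 and 6.54 CPM in RNAi nuclei. The nuclear groups of CEP120 overlapped, and its increase was 1.48 ± 0.315 (FDR 0.0168).

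CEP57, a matrix protein around the centriole, was at 24.2 CPM in the control cytoplasm and at 10.2 and 10.4 CPM in the RNAi cytoplasm, with 13.2, 7.09 and 11.9 CPM in control and 15.5, 12.7 and 14.5 CPM in RNAi nuclei. Its nuclear groups overlapped, and its ratio increased by 1.65 ± 0.353 (FDR 0.0170). CEP97, which caps centrioles together with CCP110, was at 5.05 CPM in the control cytoplasm and 2.10 and 2.62 CPM after RNAi, against 5.36, 7.36 and 6.46 CPM in control nuclei and 7.16, 10.7 and 5.67 CPM in RNAi nuclei. The increase of 1.39 ± 0.455 for CEP97 had an FDR of 0.0750 and was lost in 5 of 8 fits from which 1 sample was dropped. CEP76 (0.67) and CEP85 (-0.48) did not pass.

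Among the 11 genes of the appendages, transition zone and cilium, the ratio of 4 increased and of none decreased, with a median of 0.42. CEP290, a transition zone protein, had 11 estimated counts in the control cytoplasm and 2 and 3 in the RNAi cytoplasm, with 7 in each control nuclear sample and 18, 13 and 11 in RNAi nuclei. The 3 RNAi nuclear values were all above the control ones. Its ratio increased by 2.55 ± 0.752 (FDR 0.0533), although its cytoplasmic ratio of 0.340 had a counting interval (0.0926 to 1.06) that includes 1 and was not called. CEP162, needed to place the transition zone on the axoneme, was lower still in the cytoplasm, with 8 counts in control and 1 and 0 in RNAi cells. In nuclei CEP162 had 16, 10 and 13 counts in control and 24, 21 and 17 in RNAi samples. Its increase of 3.90 ± 1.06 (FDR 0.0413) is a fitted value that depends on how a count of 0 is handled. The cytoplasmic RNAi/control ratio of CEP162 was 0.0934 with a counting interval of 0.00211 to 0.697, which covers counting error only.

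CEP83, an organizer of the distal appendages, had more reads. It was at 2.19 CPM in the control cytoplasm and 0.701 and 0.656 CPM in the RNAi cytoplasm, and at 5.15, 3.95 and 3.89 CPM in control and 5.22, 5.84 and 6.10 CPM in RNAi nuclei. The nuclear groups did not overlap, by a small margin, and its ratio increased by 2.07 ± 0.410 (FDR 0.0127). CEP43, which anchors microtubules at the centriole and takes part in ciliogenesis, fell from 18.4 CPM to 9.35 and 8.96 CPM in the cytoplasm. Its nuclear values of 18.9, 30.2 and 27.7 CPM in control spanned the 25.9, 24.7 and 24.0 CPM of RNAi cells, and the increase of 0.96 ± 0.295 (FDR 0.0601) was lost in 5 of the 8 fits with a sample dropped.

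The other 7 genes of this group did not pass. CEP164 and CEP89, distal appendage proteins, had changes of -0.38 and 0.21, and CEP41, which acts in tubulin glutamylation in the axoneme, had -0.66. CEP78 was at 0.53 (FDR 0.102), CEP20 at 0.42 and CEP19 at 0.09. CEP20 was nevertheless lower in the cytoplasm, at 23.5 CPM in control and 16.1 and 16.2 CPM in RNAi cells (-0.54 ± 0.179, FDR 0.0577), though with the GC offset it was at 0.34 (FDR 0.370).

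Of the 5 linker and subdistal appendage genes, the ratio of 3 increased and of 1 decreased. CEP350, a large protein that anchors microtubules at the centriole, was at 11.3 CPM in the control cytoplasm and at 3.58 and 1.86 CPM in the RNAi cytoplasm. In the nuclei it was at 18.3, 4.16 and 15.9 CPM in control and at 27.8, 25.9 and 26.8 CPM in RNAi samples, so all RNAi values were above all control values and control replicate 2 stood far below the other two. Its ratio increased by 3.08 ± 0.770 (FDR 0.0306), and this call held in 21 of the 22 alternative fits. CEP170, of the subdistal appendages, was at 56.8 CPM in the control cytoplasm and 23.3 and 16.3 CPM after RNAi, and at 41.8, 20.2 and 29.0 CPM in control and 40.3, 39.5 and 40.1 CPM in RNAi nuclei.

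The nuclear values of CEP170 overlapped, since control replicate 1 was above the RNAi samples. Its increase of 1.91 ± 0.392 (FDR 0.0146) was called in all 22 alternative fits. Reads of CEP170 could in principle be shared with its pseudogene CEP170P1, to which salmon assigned at most 1 count in a sample. CEP128, also of the subdistal appendages, was at 3.35 CPM in the control cytoplasm, 1.40 and 1.53 CPM in the RNAi cytoplasm, 2.20, 1.36 and 2.21 CPM in control nuclei and 2.71, 2.78 and 3.56 CPM in RNAi nuclei. In CPM neither fraction's groups overlapped, and the increase was 1.85 ± 0.450 (FDR 0.0279). It did not hold once transcript length entered, being 0.07 (FDR 0.970) with the length offset and 0.19 and 0.34 on the log2(TPM + 1) and log2(TPM + 0.1) scales in limma, and in TPM the cytoplasmic value of control cells (0.737) lay between those of RNAi cells (0.742 and 0.584).

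CEP250 (C-Nap1), the core of the linker that ties the centrioles together, went the other way. It was at 17.9 CPM in the control cytoplasm and at 24.6 and 24.2 CPM in the RNAi cytoplasm, against 37.2, 50.2 and 37.2 CPM in control nuclei and 37.1, 36.1 and 33.1 CPM in RNAi nuclei. The change of -0.67 ± 0.242 was just inside the threshold (FDR 0.0989), was called in 2 of 8 fits with a sample dropped, and was 0.12 and 0.16 on the log2(TPM + 1) and log2(TPM + 0.1) scales in limma. CEP68, its partner in the linker, was at -0.21 (FDR 0.782).

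Of the 3 satellite and microtubule genes, the ratio of CEP126 increased and that of CEP131 decreased. CEP131, a satellite protein needed for cilium formation, was at 19.5 CPM in the control cytoplasm and 28.5 and 30.9 CPM after RNAi, and at 15.5, 24.9 and 24.2 CPM in control and 18.4, 17.4 and 19 CPM in RNAi nuclei. Its nuclear groups overlapped, and the change of -0.84 ± 0.303 (FDR 0.0990) was called in 1 of 8 fits with a sample dropped. CEP126, which helps to organize microtubules at the centrosome, had 29 estimated counts in the control cytoplasm, 8 and 4 in the RNAi cytoplasm, 45, 22 and 12 in control nuclei and 50, 35 and 48 in RNAi nuclei. In these counts, which are not scaled for depth, the nuclear groups of CEP126 overlapped. In CPM they did not, by a small margin, with 3.09 as the highest control value and 3.24 as the lowest RNAi value. The ratio of CEP126 increased by 2.51 ± 0.704 (FDR 0.0449). CEP72 was at 0.02.

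In the 5 genes of less defined role the ratio of CEP85L and CEP70 increased. CEP85L, the paralogue of CEP85, was at 6.21 CPM in the control cytoplasm and 1.64 and 2.51 CPM after RNAi, with overlapping nuclear values of 2.61, 1.5 and 3.36 CPM in control and 4.66, 3.15 and 2.83 CPM in RNAi cells, and its increase was 2.14 ± 0.549 (FDR 0.0337). CEP70, a gamma-tubulin partner, was at 3.41 CPM in the control cytoplasm and 1.32 and 1.42 CPM in the RNAi cytoplasm, against 1.72, 1.02 and 1.68 CPM in control and 1.60, 1.39 and 1.67 CPM in RNAi nuclei. The nuclear groups overlapped, and the increase of 1.40 ± 0.468 (FDR 0.0798) was called in 2 of 8 fits with a sample dropped. CEP112 (1.53, FDR 0.132) and CEP95 (1.60, FDR 0.142) were as large but not called, and CEP170B, the paralogue of CEP170, was at 0.01 ± 0.371.

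**Figure D2:**
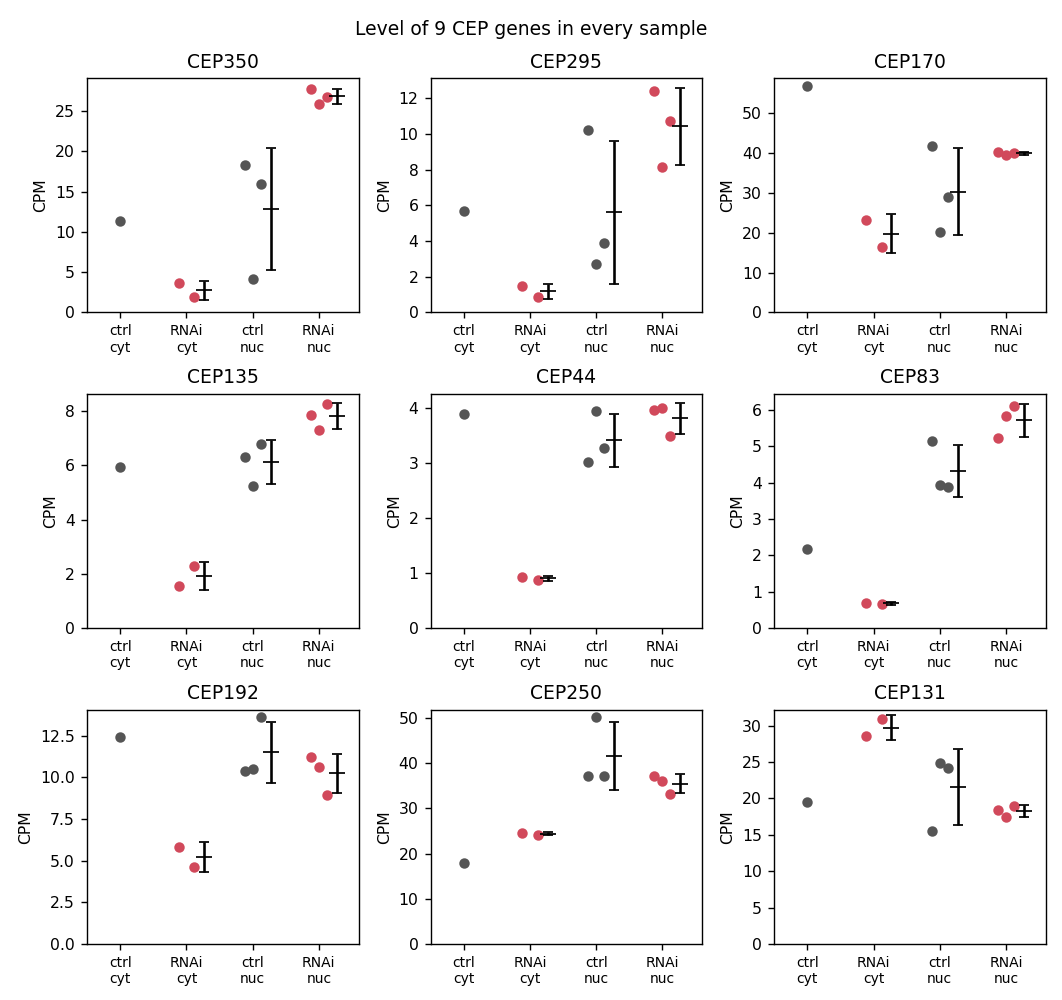
Levels of 9 CEP genes in CPM (vertical axes, from 0) in every sample, with grey points for control and red for WTAP/KIAA1429 RNAi, and bars for the mean and SD of groups with more than 1 sample. In the first 7 genes both RNAi cytoplasmic points lie below the control cytoplasmic point, and in CEP250 and CEP131 above it.

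The increase of the ratio came mainly from the cytoplasm. There, 18 of the 35 genes (51.4%) were lower after RNAi, against 14.2% of all genes tested, and 0 were higher, against 10.4%. The median over the CEP genes was -1.11, against 0.01 over all. With the GC offset 1 was lower and 1 higher, against 3.55% and 4.12% of all genes, and the median was -0.40. Without RNAi cytoplasmic replicate 2, which leaves 1 sample in each cytoplasmic group, the median was -1.13, against -0.04 over all, and fewer CEP genes were called lower. By the unadjusted p from the same test, 21 were lower and 3 higher at p under 0.05, without a share over all genes to set beside them. Of the 18 genes with an increased ratio, 17 were called lower in the cytoplasm, CEP290 being the other, and CEP20 was the 1 gene lower in the cytoplasm without a called ratio. In 25 of the 35 genes (71.4%) both RNAi samples were below the control sample, against 40.1% of all genes. The summed level of the 18 genes was 173 CPM in the control cytoplasm and 69.5 and 60.2 CPM in the RNAi cytoplasm, while that of the 15 genes not called was 253 CPM and 251 and 279.7 CPM. The genes were sorted by the ratio in these same samples, which favours such a split, so the sums are no separate result. The long noncoding RNAs listed as nuclear moved in the same direction in this comparison. Of the 6 tested, 3 were called lower (KCNQ1OT1, MALAT1 and OIP5-AS1), with a median of -0.66. In control cells OIP5-AS1 (0.02) and HCG11 (-0.24) were not called nuclear, while the other 4 were. The part of these RNAs in the result was not tested.

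In the nucleus, where both groups had 3 samples, 0 of the 35 genes were called higher and 0 lower by edgeR, against 2.47% and 2.42% of all genes tested. At an unadjusted p under 0.05 from edgeR's test, 6 were higher and 0 lower, without a share over all genes to set beside them. The DESeq2 Wald test called 0 but gave 12 of the 35 no adjusted p. The length offset and limma on log2(TPM + 1) each called 4 higher (CEP83, CEP290, CEP295 and CEP350), against 1.40% and 0.939% of all genes. The largest values were 1.08 ± 0.392 for CEP350 (FDR 0.154) and 1.04 ± 0.367 for CEP290 (FDR 0.144), and the lowest FDR was 0.144. Without control nuclear replicate 1, 4 genes were called higher (CEP126, CEP170, CEP295 and CEP350), against 3.82% of all genes. Without control nuclear replicate 2, 1 was (CEP350), against 2.87%. The median was 0.23, against -0.00 over all genes, and 26 of 35 values were above 0. Every RNAi sample was above every control sample in 10 genes (28.6%), namely CEP72, CEP78, CEP83, CEP126, CEP128, CEP135, CEP152, CEP162, CEP290 and CEP350, against 14.3% of all genes. The opposite held for 1 gene (2.86%), CEP250, against 13.8%. The summed level of the 18 genes with an increased ratio was 153, 108 and 140.1 CPM in control nuclei and 183, 173 and 172 CPM in RNAi nuclei, and control replicate 2 was the lowest. These genes were picked by their ratio in the same samples, which favours a higher sum in RNAi nuclei, so the sums are no separate result.

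**Figure D3:**
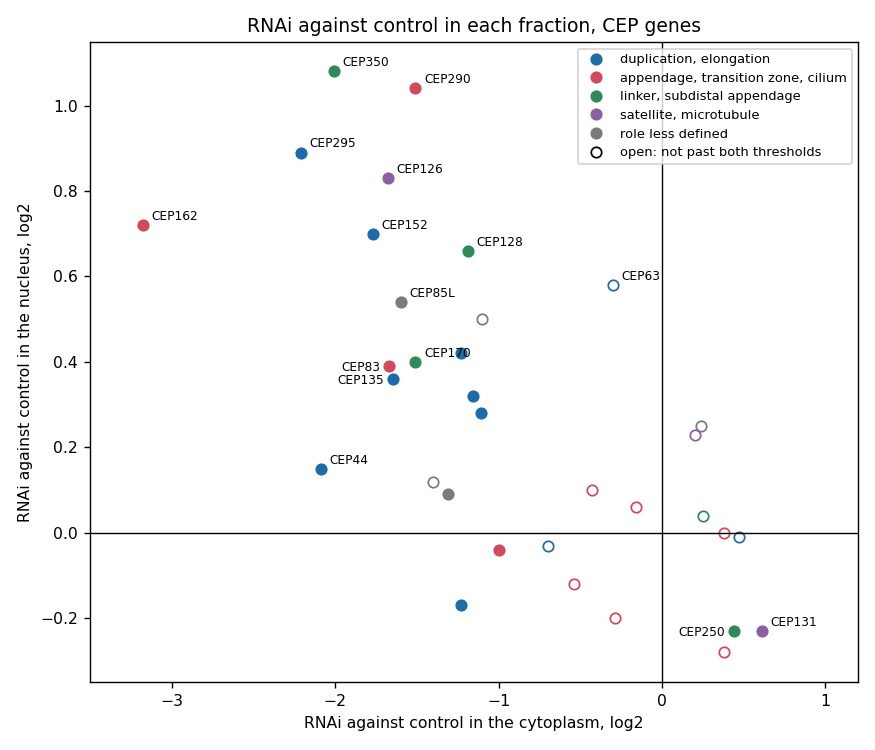
The log2 change after RNAi in the cytoplasm (horizontal axis) and in the nucleus (vertical axis) for each CEP gene, filled when its ratio change was past both thresholds. All 18 genes with an increased ratio lie left of 0, 16 of them above 0 in the nucleus, and CEP250 and CEP131 lie right of 0 and below it.

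Within RNAi cells, where both fractions were replicated, 21 of the 35 genes (60.0%) were higher in the nucleus than in the cytoplasm, against 32.9% of all genes, and 3 (8.57%) were lower, against 24.9%. The 3 were CEP131 (-0.70), CEP20 (-0.84) and CEP19 (-0.90). With the GC offset, 17 were higher and 4 lower, where 28.7% and 31.1% of all genes were. The highest values were 4.88 ± 0.724 for CEP162, 3.87 ± 0.443 for CEP152 and 3.25 ± 0.551 for CEP350. In control cells 8 genes (22.9%) were higher in the nucleus, against 28.0% of all genes, and 9 (25.7%) were lower, against 22.7%. The median was 0.03 in control cells and 0.77 in RNAi cells.

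The nuclear genes of control cells included CEP152 (1.40 ± 0.433), CEP250 (1.21 ± 0.198), CEP83 (0.98 ± 0.286) and CEP85 (0.94 ± 0.165). The most cytoplasmic ones were CEP85L (-1.33 ± 0.395), CEP20 (-1.25 ± 0.164), CEP70 (-1.21 ± 0.334) and CEP57 (-1.18 ± 0.262). Of the genes with an increased ratio, 6 were more abundant in the cytoplasm of control cells and 2 in the nucleus. Between the conditions, 6 genes were called nuclear in both, 15 in RNAi cells alone, and 4 of these 15 were called cytoplasmic in control cells (CEP85L, CEP120, CEP128 and CEP170). The control value of CEP128, -0.80, turned to 0.37 with the length offset and to 0.21 and 0.38 on the limma scales. CEP19 and CEP20 were cytoplasmic in both.

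**Figure D4:**
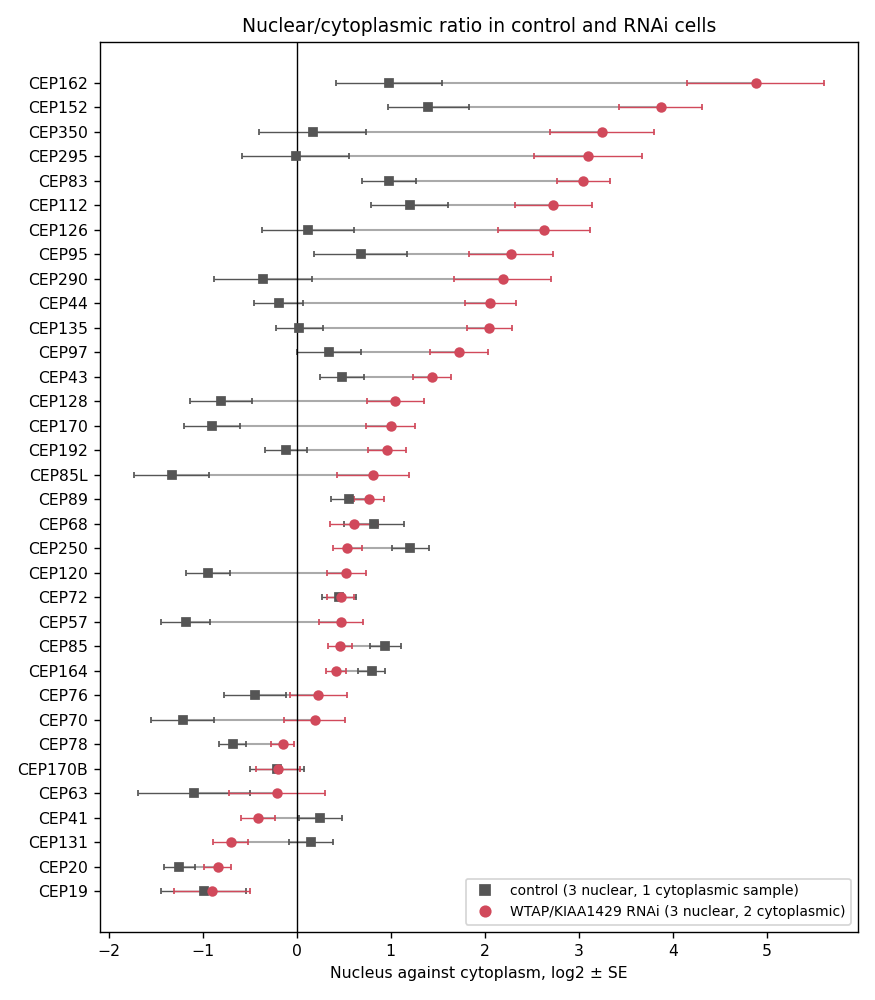
Nucleus against cytoplasm (log2, horizontal axis, with standard errors) for each CEP gene in control cells (grey squares) and in WTAP/KIAA1429 RNAi cells (red circles), joined by a line. Long lines to the right mark genes such as CEP162, at 0.98 in control and 4.88 in RNAi cells, while CEP72, CEP170B and CEP19 stay in place within their errors.

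GC content ordered the changes more closely than length did. Over the 35 genes, Spearman's rho of the ratio change with GC content of the longest protein-coding transcript was -0.74 and Pearson's r -0.70, and over the 13474 protein-coding genes tested rho was -0.62 and r -0.48. With coding length rho was 0.36 over the CEP genes, and with transcript length it was 0.18. These are correlations across genes of the same libraries, given as a description. The median CEP transcript had 41.1% GC, against 49.4% in protein-coding genes. Of the 7 CEP genes above that value (CEP72, CEP85, CEP89, CEP131, CEP164, CEP170B and CEP250) none had an increased ratio and 2 had a decreased one, and of the other 28 the ratio of 18 increased and of none decreased. The CEP89 transcript used had 2 exons and a coding length of 240 nucleotides, so its GC content may not stand for the gene's other transcripts.

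Libraries differed in the same property. The level of GC-poor protein-coding genes (at or below the lower quartile, 42.3%) relative to GC-rich ones (at or above the upper quartile, 57.5%), as a log2 deviation from each gene's mean over the 9 samples, was 0.67 in the control cytoplasmic sample and -0.33 and -0.55 in the RNAi cytoplasmic samples. In nuclei it lay between -0.11 and 0.13 in control and between -0.03 and 0.12 in RNAi samples. In the nucleus the ratio of RNAi to control had a rho of -0.03 with GC content over protein-coding genes and of -0.45 over the CEP genes. With 1 control cytoplasmic sample, a property of that library and an effect of the RNAi on GC-poor mRNAs in the cytoplasm cannot be told apart. With the GC offset the largest changes were 3.00 for CEP162, 2.57 for CEP350 (FDR 0.107) and 2.47 for CEP295 (FDR 0.125), and with an offset for GC and transcript length together CEP170, CEP295 and CEP350 were called higher.

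**Figure D5:**
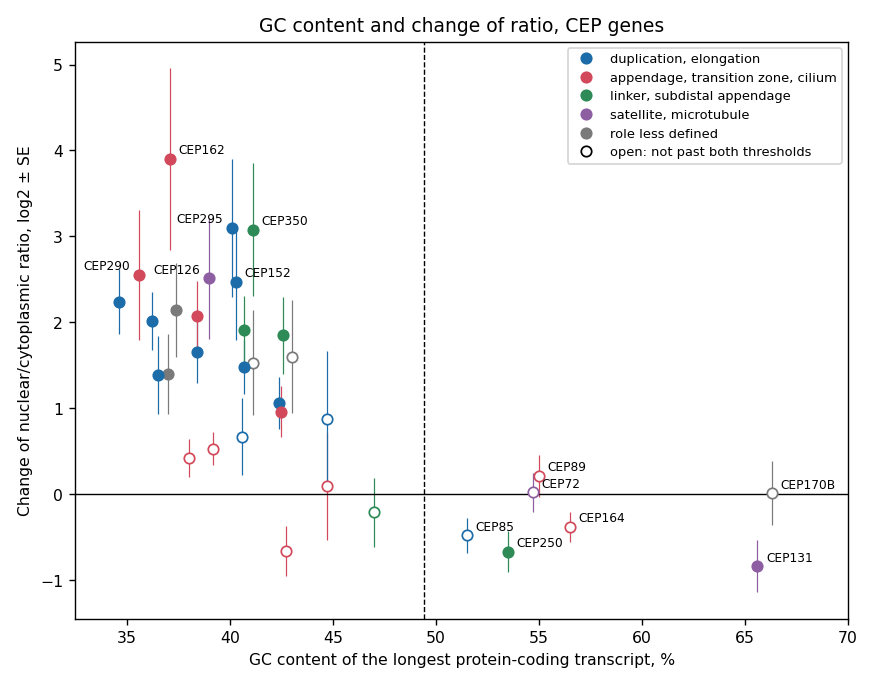
Change of the nuclear/cytoplasmic ratio (log2 with standard error, vertical axis) against GC content of the longest protein-coding transcript (%, horizontal axis) for the CEP genes, with a dashed line at the median of all protein-coding genes tested, 49.4%. All 18 increased genes lie at or below 42.6%, and CEP250 and CEP131 lie at 53.5% and 65.6%.

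CEP genes were longer than most by their longest protein-coding transcript, but hardly by the transcript with the highest TPM. The latter had a median of 2158 nucleotides, against 2147 in protein-coding genes tested, and 7.0 exons against 6.0. Their longest protein-coding transcript had a median of 5596 nucleotides, against 3377 in protein-coding genes, a coding length of 2595 against 1371, and 18.0 exons against 9.0. The median of the longest internal exon of any transcript was 442 nucleotides against 286, and that of the longest final exon 1798 against 1928. The letters GGACT, the core of the best known m6A sequence context, were counted on the transcript's strand only. They were present in 91.4% of CEP transcripts and 92.0% of those of protein-coding genes, at a median of 0.71 and 0.94 matches per kb, and in 94.4% of the genes with an increased ratio at 0.56 per kb. A match is not a methylated site. CEP44 had 10 matches in its transcript (2.33 per kb), CEP162 and CEP290 had 1 each, and CEP57, whose ratio also increased, had none in the transcript used.

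Protein-coding transcripts took a larger share of the CEP counts in the cytoplasm than in the nucleus. Of 359 CEP transcripts, those annotated as protein-coding took 88.0% of the estimated counts in the control cytoplasm and 87.6% and 88.5% in the RNAi cytoplasm. In nuclei they took 82.5%, 82.5% and 83.0% in control and 81.0%, 80.8% and 80.7% in RNAi samples, so the nuclear groups did not overlap. Transcripts with a retained intron took 5.87% in the control cytoplasm, 7.17% and 7.79% in the RNAi cytoplasm, 9.03% to 9.81% in control nuclei and 9.0% to 9.64% in RNAi nuclei. Transcripts annotated for nonsense-mediated decay took 4.01% in the control cytoplasm and 3.04% and 1.08% in the RNAi cytoplasm, and 2.10% to 3.09% in control and 3.20% to 3.45% in RNAi nuclei. These shares were not tested. Counted from protein-coding transcripts alone, 14 CEP genes had an increased ratio and none a decreased one.

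Levels per transcript length (TPM) were low throughout. The highest means over the 9 samples were 25.1 TPM for CEP89, 19.4 TPM for CEP164 and 17.4 TPM for CEP85, and the lowest were 0.484 TPM for CEP290, 0.452 TPM for CEP126 and 0.244 TPM for CEP162. CEP89 was at 14.6 TPM in the control cytoplasm, 12.6 and 12.5 TPM in the RNAi cytoplasm, 18.9, 37 and 34.0 TPM in control nuclei and 31.3, 34.8 and 30.0 TPM in RNAi nuclei, and 41.2% of its TPM came from a short transcript without a defined coding sequence. CEP164 was at 11.4, then 12.1 and 12 TPM in the cytoplasm of control and RNAi cells, and at 17.8, 27.4 and 22.1 TPM in control and 24.2, 26.0 and 21.8 TPM in RNAi nuclei. CEP85, which binds the duplication factor STIL, was at 8.44 TPM in the control cytoplasm, 9.47 and 10.4 TPM in the RNAi cytoplasm, 17.2, 25.5 and 20.4 TPM in control nuclei and 18.8, 23.6 and 23.2 TPM in RNAi nuclei. All 3 were called higher in the nucleus in control cells, and in each the nuclear values of the conditions overlapped.

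Of 40 other centrosome genes listed beside the CEP genes, 39 were tested, and the ratio of 14 increased and of 3 decreased, with a median of 0.34, where 10.4% and 7.87% of all genes did. With the GC offset 6 increased and 0 decreased, against 2.78% and 2.13% of all genes. The 4 largest changes past the thresholds were those of PCM1, CENPJ, NIN and RTTN. PCM1, the scaffold of the centriolar satellites, was at 13.2 CPM in the control cytoplasm and 2.18 and 3.50 CPM in the RNAi cytoplasm, and at 8.45, 5.73 and 8.32 CPM in control and 14.7, 11 and 14.2 CPM in RNAi nuclei, with an increase of 3.08 ± 0.379 (FDR 0.00199). CENPJ, which sets centriole length, increased by 2.92 ± 0.513 (FDR 0.00845), with 63 counts in the control cytoplasm and 13 and 4 after RNAi. NIN, of the subdistal appendages, increased by 2.40 ± 0.472 (FDR 0.0122). RTTN, needed for full-length centrioles, decreased by -3.02 ± 0.954 (FDR 0.0663) on 16 counts in the control cytoplasm and 32 and 77 in the RNAi cytoplasm.

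Of the duplication genes in this list, PLK4 (1.30), SASS6 of the cartwheel (2.33) and CCP110, the partner of CEP97 (2.22), increased, and STIL, at 0.36 (FDR 0.230), did not pass. In the nucleus PCM1, AKAP9 and CCDC14, of the 39 tested, were called higher and 0 lower, against 2.47% and 2.42% of all genes. Of 10 cell cycle genes the ratio of MKI67 (2.00), TOP2A (1.95) and BUB1 (0.63) increased and that of MCM2 (-0.64) decreased. Their summed level was 1624 CPM in the control cytoplasm, 1493 and 1509.8 CPM in the RNAi cytoplasm, 1305 to 1357 CPM in control nuclei and 1373 to 1427 CPM in RNAi nuclei. Their part in the changes of the CEP genes was not tested.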

How the data were processed

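Reads from nuclear and cytoplasmic fractions were trimmed with cutadapt and quantified by the authors with Salmon against Ensembl transcripts of hg19 (versions of cutadapt and Salmon not given in the sources used here). For each of 9 samples the authors deposited an estimated count and a TPM value per transcript, and the lengths, in nucleotides, that Salmon used. Transcripts were matched by identifier to GENCODE version 44 on GRCh37 (183122 of 215170, holding 83.07% to 88.31% of counts), and the estimates of each gene's transcripts were added up and rounded to whole counts. At these depths 3 counts are 0.19 to 0.303 CPM, and counting intervals cover counting error only.

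edgeR 4.0.16 (R 4.3.3) was run with TMM normalization on 16181 genes with at least 10 counts in at least 3 samples, as a design of 4 groups over all 9 samples with 5 residual degrees of freedom and without a replicate block. The contrast and thresholds (log2 change of 0.5, FDR of 0.1) follow the study's methods. Standard errors are the size of the log2 change divided by the square root of F. Of the 35 CEP genes, 25 had 10 counts in every sample. The rest passed in fewer, CEP290 and CEP63 in 4, so that low members entered partly through the samples in which they were higher. The code was tested on simulated data.

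The members and gene lists were chosen with earlier results of these data known. Full values were given for members past both thresholds in the ratio change and for the 3 with the highest mean TPM. Of the other centrosome genes, the 4 with the largest change past both thresholds were described. PCM1 was given full values, CENPJ and RTTN cytoplasmic counts, and NIN its ratio change only. Gene structure and GC content came from GENCODE transcripts, and sequences from the GRCh37 genome. Alternatives were DESeq2 1.42.0 size factors and Wald test, library size scaling, other filters, a length offset, protein-coding genes or transcripts, a replicate block, leaving out each sample, and limma 3.58.1 on log2(TPM + 1) and log2(TPM + 0.1). The offset for GC content, a smooth trend of each sample's deviation on transcript GC content, and that for GC content and length were added after the results were seen. One member counts in every total but is not reported here by itself, and is not drawn.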

Additional observations from a re-analysis of the deposited data

Results flagged for a closer look

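For 20 CEP genes the change after WTAP/KIAA1429 RNAi differed between the fractions, as the change in the nucleus minus that in the cytoplasm in edgeR's quasi-likelihood fit (log2 scale). This difference is the ratio change given above, with the same 18 increases and 2 decreases, and not a second test. Of all genes tested, 10.4% had an increase and 7.87% a decrease. The difference was negative for CEP131 (-0.84) and CEP250 (-0.67). It was 0.96 for CEP43, 1.06 for CEP192, 1.39 for CEP97, 1.40 for CEP70 and 1.48 for CEP120. It was 1.65 for CEP57, 1.85 for CEP128, 1.91 for CEP170, 2.01 for CEP135 and 2.07 for CEP83. It was 2.14 for CEP85L, 2.24 for CEP44, 2.47 for CEP152, 2.51 for CEP126 and 2.55 for CEP290, and reached 3.08 for CEP350, 3.10 for CEP295 and 3.90 for CEP162. All of these differences share the single control cytoplasmic sample, and with the GC offset that of CEP170 alone passed both thresholds among these 20. No group had 4 or more samples, so single samples were not screened for standing apart.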

How the results depend on the processing

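The count of CEP genes with an increased ratio (18) stayed within 1.5 times of itself under DESeq2 size factors, library size scaling, the DESeq2 Wald test, both other filters, the length offset, protein-coding genes or transcripts, the replicate block and an FDR of 0.05. It was 9 with limma on log2(TPM + 1), 11 on log2(TPM + 0.1), 1 with the GC offset and 3 with the offset for GC content and length, and 10 to 20 when a sample was left out. Over all genes the shares with an increase were 6.45% and 7.64% on the limma scales and 2.78% and 3.08% with the 2 offsets. They were 7.68% to 12.7% with a nuclear sample left out. With only genes at 10 counts in every sample the median over the tested CEP genes was 0.63. Library size scaling moved the median of all genes from -0.05 to 0.23. The 2 decreases were the least stable. Their number was 1 with DESeq2 size factors and the Wald test, 1 (CEP41) under both GC offsets, 0 to 2 with a sample left out, and 0 with library size scaling, 10 counts in every sample, the length offset, protein-coding genes or transcripts, both limma scales and an FDR of 0.05, and CEP250 was at 0.12 and 0.16 on the limma scales. The cause was not tested. In the nucleus, where 0 were called, 2 were higher without the low-count filter (1.83% of all genes) and 4 with the length offset (1.40%). Protein-coding transcripts gave 1 (2.04%), the replicate block 2 (3.39%) and limma on log2(TPM + 1) 4 (0.939%). With the offset for GC content and length 1 was higher (3.13%), and with a sample left out 0 to 4 (0.201% to 3.82%). In the cytoplasm the number lower (18) was 1 with the GC offset, 2 with the offset for GC content and length and 10 to 19 with a sample left out, and the number higher (0) was 1 under both GC offsets and without the filter, 3 with the replicate block and 0 to 1 with a sample left out. Over all genes the shares lower in the cytoplasm were 3.55% and 4.21% with these offsets. Those higher were 4.12% and 4.33% with them, 4.52% without the filter and 12.8% with the replicate block. Within RNAi cells the number lower in the nucleus (3) was 1 with library size scaling (12.9% of all genes) and with protein-coding transcripts (18.4%). It was 0 on both limma scales (7.55% and 7.95%), and in control cells it was 5 (of 9) with limma on log2(TPM + 1) (14.9%).

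The ratio of other centrosome genes increased for 14 and decreased for 3. The increases numbered 8 with the length offset and on both limma scales (6.61%, 6.45% and 7.64% of all genes). They numbered 6 with the GC offset (2.78%) and 5 with GC content and length (3.08%). The decreases numbered 6 with the replicate block, 1 with library size scaling, 10 counts in every sample, the length offset, protein-coding genes and GC content and length, 0 with protein-coding transcripts, limma, the GC offset and an FDR of 0.05, and 0 to 3 with a sample left out.

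As shares of TPM, protein-coding transcripts took 69.3% in the control cytoplasm, 67.7% in the RNAi cytoplasm, 52.7% in control nuclei and 49.5% in RNAi nuclei, and transcripts with a retained intron 12.6%, 17.0%, 20.7% and 19.6%. The transcript with the highest TPM had a median of 2158 nucleotides and 7.0 exons in the CEP genes, against 2147 and 6.0 in protein-coding genes tested. The longest protein-coding one had 5596 and 18.0 in the CEP genes, against 3377 and 9.0.

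Samples share replicate numbers, and same-numbered samples of different groups deviated together with correlations of 0.037 to 0.197 (0.185, 0.11 and 0.042 in the nucleus), against -0.197 to 0.063 for different numbers. Since not every same-numbered pair exceeded 0.1, the numbers were not taken as pairs. With the replicate block 21 CEP genes had an increased ratio and 3 a decreased one (CEP85, CEP131 and CEP250).

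Depth limits the low members most. CEP162, CEP290, CEP152 and CEP112 had 5 or fewer counts in each RNAi cytoplasmic sample, where a difference in the cytoplasm rests on few reads.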
